A study of Harpegnathos saltator with 27 samples.

Results

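The comparison set the response of the brain to an insect steroid hormone against the response of the fat body, in workers of the ant Harpegnathos saltator. Workers received 500 ng of 20-hydroxyecdysone (20E) in the abdomen, or about 1 µL of the solvent, a salt solution with 10% ethanol (EtOH), and tissues were taken 12 hours later. The part of the brain without its visual centres and the abdominal fat body gave 3 libraries per treatment, so 12 of the study's 27 libraries form the comparison. They are EtOH-Brain, 20E-Brain, EtOH-Fb and 20E-Fb, and they were chosen by their labels. The other libraries were from workers given 500 ng of the juvenile hormone analog methoprene (JHA) and from ovaries. No source used here gives the workers' age, line or colony, and the design text speaks of 3 individuals per treatment.

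20E is the active form of ecdysone. It binds a nuclear receptor made of EcR and Ultraspiracle, which switches on early genes, many of them transcription factors, that in turn act on later genes, so the genes that answer can differ from tissue to tissue. The fat body is the insect organ of metabolism and storage and, in egg-laying females, the main source of yolk protein. The count table holds 20659 gene identifiers without names, and 0 of them were found in a reference table of 14329 genes of the species. Members are therefore given by identifier and without a function, the tissues could not be checked against named marker genes, and no sequence is shown.

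Each of the 12 libraries held 9909018 to 16709668 counts on genes. As a stand-in for named markers, genes were listed that stood at 10 CPM (counts per 1000000, with library sizes scaled by TMM) or more in one tissue and at least 32-fold above the other in the JHA libraries, which are outside the comparison. The 308 fat body genes of this kind took 43.3 to 46.0% of gene counts in solvent fat body and 40.8 to 47.3% with 20E, and 0.952 to 1.94% in solvent brain against 0.954 to 1.53% with 20E. The 631 brain genes took 11.3 to 14.7% in solvent brain and 11.9 to 13.2% with 20E, and at most 0.0949% in any of the 6 fat body libraries. Reads outside any gene made up 30.0 to 31.5% of the fat body table with solvent and 26.3 to 28.7% with 20E, and reads that aligned to several places 15 to 16% and 17.1 to 18.5%, without overlap. In brain the ranges of both measures overlapped. The part of these shares in the fat body results was not tested. EtOH-Brain replicate 3 and JHA-Brain replicate 1 stood apart among the 9 brain libraries, with the lowest shares of reads outside genes (50 and 48.5%) and of brain gene counts (11.3 and 10.5%). Counts that moved by over 1.5 times without them are given both ways.

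The differences between 20E and solvent libraries were related but unequal in the tissues. Of 9605 genes tested in both tissues, 5843 (60.8%) had the same sign of change, and the log2 fold changes (20E over solvent) had a Pearson correlation of 0.36 and a Spearman correlation of 0.31 across genes. Genes are not independent replicates. No library enters both sides, but the tissues may come from the same ants. Differences between ants that both tissues share would then enter both changes, and they cannot be told apart from a shared response to 20E. An unadjusted p under 0.05 in both tissues was reached by 146 genes that rose in both and 133 that fell in both, together 2.9% of those tested, and by 23 that rose in brain and fell in fat body and 16 with the reverse, together 0.406%. Fat body libraries varied more. The median coefficient of variation between libraries beyond counting noise was 0.252 in fat body and 0.188 in brain. The median standard error of a log2 fold change, which also depends on depth, was 0.264 in fat body and 0.175 in brain.

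**Figure D1:**
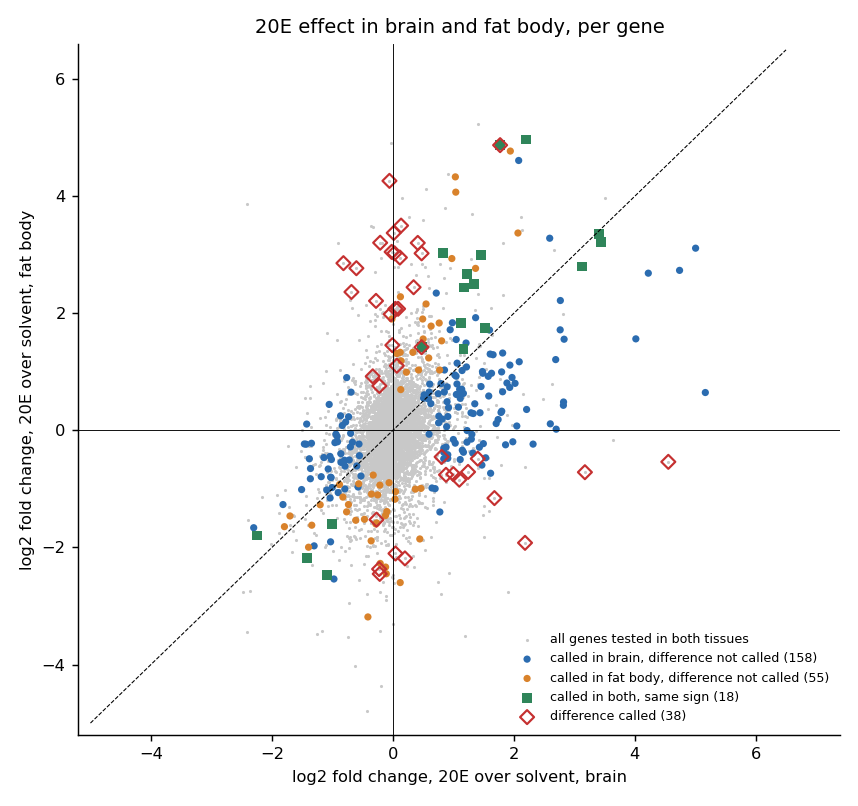
The log2 fold change of 20E over solvent in fat body (vertical axis) against that in brain (horizontal axis), 1 point per gene for the 9605 genes tested in both tissues, with the dashed line at equal change. The 18 genes called in both tissues lie in the upper right and lower left, and 38 of the 40 genes with a called difference are drawn as open diamonds away from the line, since 2 were not tested in fat body.

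The central test asked whether the 20E effect itself differed between the tissues, as the log2 change in brain minus the log2 change in fat body. With edgeR's quasi-likelihood test over 12833 genes and a Benjamini-Hochberg adjusted p under 0.05, which is the meaning of "called" throughout, 40 genes were called, or 0.312%. The difference was above 0 in 17 of them (0.132%) and below 0 in 23 (0.179%). The 23 below 0 were all higher with 20E in fat body, with a median log2 fold change of 2.77 there and 0.01 in brain. Of the 17 above 0, 14 were higher with 20E in brain, where the median was 1.10, and all 15 that were tested in fat body were lower there, with a median of -0.84. In solvent brain 4 of the 17 stood under 1 CPM. Genes that low can pass the filter on low counts through their 20E libraries alone. The median difference over all tested genes was 0.01. The last genes inside the threshold had differences of -4.30 and -3.39 (adjusted p of 0.0356 and 0.0377), and the next 2 outside it 2.55 and 1.05 (both 0.0513).

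When the difference was taken within replicate numbers, as a block for presumed ants, 17 genes were called (10 above 0, 7 below), 14 of them among the 40. The count was 19, 18 and 19 without EtOH-Brain replicate 1, EtOH-Brain replicate 2 or 20E-Brain replicate 2, and 61 and 78 without EtOH-Fb replicate 2 or 20E-Fb replicate 1.

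**Figure D2:**
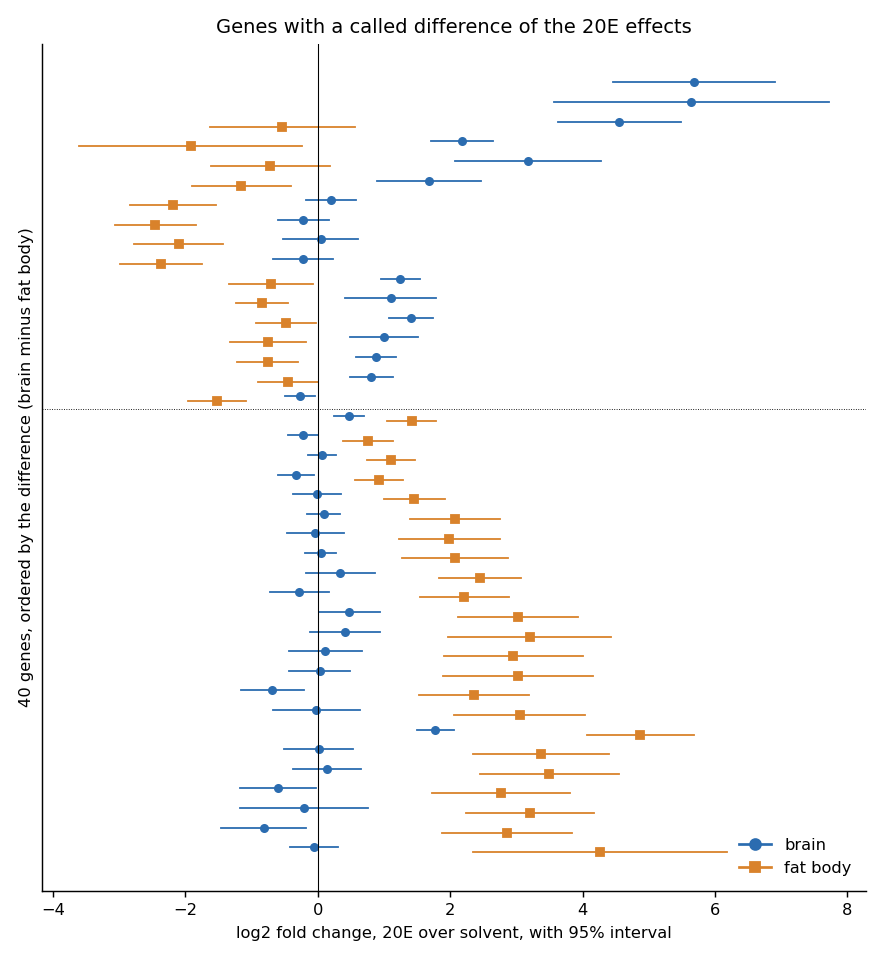
Log2 fold changes of 20E over solvent (horizontal axis) in brain (circles) and fat body (squares) with 95% intervals, for the 40 genes with a called difference ordered by that difference; the dotted line parts the 23 below 0 from the 17 above 0. In the 23 genes under the line the fat body value lies to the right of the brain value and of 0.

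HSALG001741.2 had the smallest p. It rose in both tissues, but by very different factors. In fat body the 3 solvent libraries stood at 3.89, 3.32 and 4.95 CPM and the 3 20E libraries at 119, 110 and 121 CPM. In brain they stood at 30.2, 24.9 and 32.8 CPM with solvent and 108, 92.6 and 97.1 CPM with 20E. The groups did not overlap in either tissue, which held for 16.9% of all genes tested in brain and 18.3% in fat body taken singly. The tissues, far apart with solvent, lay close together with 20E. The log2 fold change was 1.77 in brain (SE 0.13, adjusted p = 0.000279) and 4.87 in fat body (SE 0.36, adjusted p = 0.00198), a difference of -3.09 (SE 0.36, 95% interval -3.84 to -2.33, adjusted p = 0.00236). Within replicate numbers, the log2 ratio of brain to fat body was 2.81, 2.74 and 2.61 with solvent and -0.14, -0.25 and -0.32 with 20E. Levels set side by side across tissues depend on the scaling. CPM here uses TMM factors over both tissues, and scaling by total counts alone would raise brain levels relative to fat body about 3.43-fold.

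HSALG006240.2 responded in fat body. There it stood at 204, 277 and 221 CPM with solvent and at 905, 1355 and 922 CPM with 20E. Its brain libraries lay at 93.8, 110 and 142 CPM with solvent and at 117, 87.5 and 77.6 CPM with 20E, so that the brain groups overlapped while the fat body groups did not. It rose in fat body by a log2 fold change of 2.21 (adjusted p = 0.0144), while the brain value was -0.28 (adjusted p = 0.728). The difference was -2.48 (SE 0.35, adjusted p = 0.00562). The fat body call ended without EtOH-Fb replicate 1 or 3, and the difference in 0 of 22 alternative fits.

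HSALG002574.2 fell in fat body. Its solvent libraries there were at 14.9, 15.7 and 18.6 CPM and its 20E libraries at 5.24, 2.76 and 2.59 CPM. In brain the values were 21.9, 28.5 and 23.0 CPM with solvent and 25.1, 26.9 and 31.5 CPM with 20E, which overlap. The log2 fold change was -2.19 in fat body (adjusted p = 0.0144) and 0.20 in brain (adjusted p = 0.792), with a difference of 2.40 (SE 0.33, adjusted p = 0.00562). The fat body call ended in 4 of 13 alternative fits (only the 12 libraries, and without EtOH-Fb replicate 1, EtOH-Fb replicate 3 or 20E-Fb replicate 2), and the difference in 0 of 22.

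HSALG026937.1 was nearly silent in solvent brain. Its 3 solvent libraries there held 1, 2 and 2 reads, or 0.0484, 0.0841 and 0.105 CPM, and the 20E libraries 39, 39 and 41 reads, or 1.86, 2.13 and 1.93 CPM. Fat body held it at a higher level, with 5.10, 11.5 and 4.13 CPM with solvent and 7.14, 4.67 and 2.28 CPM with 20E. The brain groups were far apart and the fat body groups overlapped. The log2 fold change was 4.55 in brain (SE 0.42, adjusted p = 0.0011) and -0.54 in fat body (adjusted p = 0.692), a difference of 5.06 (SE 0.73, adjusted p = 0.00562). The 95% interval of the brain change ran from 3.62 to 5.49. The JHA brain libraries held 3, 1 and 2 reads. In the brain fit the gene therefore passed the filter on low counts only through its 20E libraries, so its brain values are a description.

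**Figure D3:**
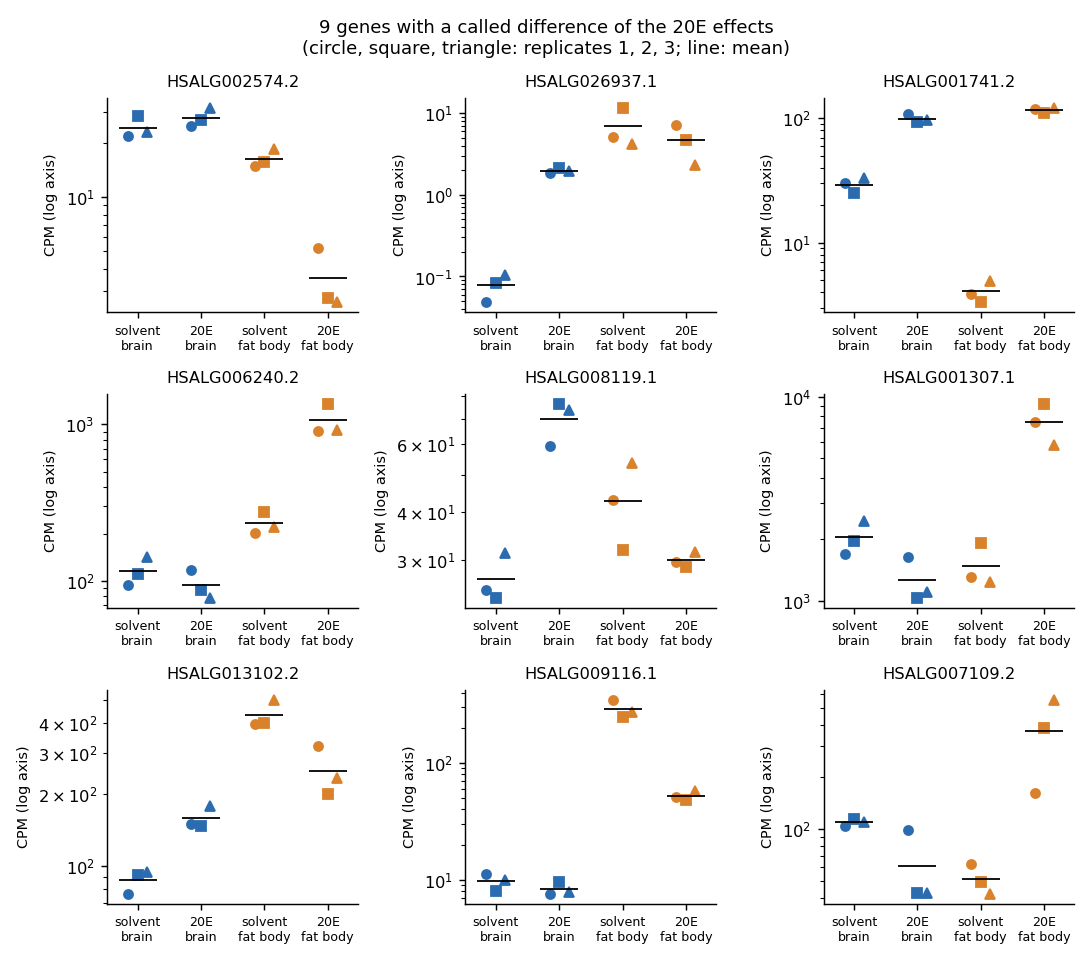
CPM on a log axis for each of the 12 libraries of the 9 named genes with a called difference, in solvent and 20E groups of brain (blue) and fat body (orange); symbols stand for replicate numbers and lines for the mean of 3 libraries. HSALG001741.2 is higher with 20E in both tissues, and HSALG009116.1 is lower with 20E in fat body while its brain libraries stay near 10 CPM.

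Genes were next sorted by direction. In the fits of each tissue, 231 of 12379 genes were called in brain (1.87%; 1.35% higher and 0.517% lower with 20E) and 100 of 9870 in fat body (1.01%; 0.598% higher and 0.415% lower). With solvent, 26 of the 231 stood under 1 CPM in brain and 6 of the 100 in fat body. Such genes can pass the filter on low counts through libraries with hormone alone. The balance of directions depended on the fit. In brain 167 genes were higher and 64 lower, but 188 and 212 without EtOH-Brain replicate 3 and JHA-Brain replicate 1, 783 and 783 by voom with library weights, and 351 and 208 by DESeq2. In fat body 59 were higher and 41 lower, but 237 and 287 by DESeq2, 253 and 312 in the joint fit, and 15 and 20 without EtOH-Fb replicate 2. Leaving out 20E replicate 1 gave 423 brain and 105 fat body calls, and leaving out any other single library of the comparison gave 51 to 87 and 13 to 35. Of the genes tested in both, 18 were called in both with the same sign (0.187%; 7.79% of the brain list and 18% of the fat body list) and 0 with opposite signs. The other fits gave between 0 and 4 genes with opposite signs, with 4 by DESeq2's Wald test and 4 by limma voom with library weights, and at an unadjusted p under 0.05 in both tissues there were 39. A further 213 genes were called in brain and not in fat body, and 82 in fat body and not in brain. The difference itself was called for 10 and 24 of them. It was also called for 4 genes called in neither tissue, among them the gene with the difference of -4.30 given above. For the 10 and the 24, the calls do not show a lack of response in the other tissue. An unadjusted p under 0.05 was reached there by 6 of the 8 tested and by 6 of the 24. Over all genes tested for the difference, it was reached by 1400 of 9845 in fat body and 1430 of 12379 in brain. The test of the difference favours genes that move the opposite way there, so these shares are a description.

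Among the genes called in both tissues, 14 rose and 4 fell. The median log2 fold change of the 14 was 1.40 in brain and 2.73 in fat body, and that of the 4 was -1.26 and -1.99, beside -0.02 and -0.01 over all genes tested. In solvent brain 2 of the 14 stood under 1 CPM, HSALG030197.1 (0.171 CPM) and HSALG000871.2 (0.258 CPM). Genes that low can pass the filter on low counts through libraries with hormone alone, so their brain rises are a description. A called difference was found for 2 of the 18, both larger rises in fat body. In the other 16 no difference was called, but for 15 of them the 95% interval of the difference still reached a 2-fold step, so equal change was not shown. The count of 18 was 4 to 11 without any one of the 10 libraries other than the 20E replicates 1, and it was 4 with the replicate block. In the tissue fits that block ties libraries of different treatments by number, not by ant.

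HSALG013686.2 and HSALG015071.2 had the largest shared rises, judged by the smaller of the changes in brain and fat body. HSALG013686.2 stood at 12.3, 13.2 and 11.7 CPM in solvent brain and 80.5, 123 and 187 CPM in 20E brain. In fat body it stood at 23.2, 19.6 and 15.3 CPM with solvent and 125, 160 and 303 CPM with 20E. In both tissues the lowest 20E library was replicate 1 and the highest replicate 3, and all lay above solvent. The difference between the tissues was 0.06 (SE 0.45, 95% interval -0.89 to 1.00, adjusted p = 1).

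HSALG015071.2 followed the same library order. Its 20E libraries were at 118, 189 and 304 CPM in brain and at 186, 256 and 419 CPM in fat body, against 18.1 to 20.3 CPM and 25.4 to 34.9 CPM with solvent. Its difference was 0.23 (SE 0.44, 95% interval -0.70 to 1.16, adjusted p = 0.986). In ovary, the 20E libraries of HSALG013686.2 held 47.9, 48.7 and 61.2 CPM against 40.5 to 52.9 CPM with solvent, which overlap. Ovary CPM is scaled over the ovary libraries.

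The falls shared by both tissues were led by HSALG006313.2 and HSALG012347.2. HSALG006313.2 was at 4.11, 6.77 and 3.51 CPM in solvent brain and 1.62, 0.765 and 0.612 CPM in 20E brain. In fat body it was at 11.1, 17.9 and 11.8 CPM with solvent and 4.13, 3.95 and 3.42 CPM with 20E, again without overlap. Its difference was -0.43 (95% interval -1.45 to 0.58, adjusted p = 0.908), and 6 of 14 alternative fits ended its brain call and 7 of 13 its fat body call.

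HSALG012347.2 was at 13.2, 15.3 and 10.7 CPM in solvent brain and 6.52, 2.79 and 5.13 CPM with 20E, and in fat body at 7.53, 4.62 and 6.74 CPM and 1.11, 0.839 and 2.08 CPM. Its 20E libraries were low in both tissues. Its difference was 0.77 (95% interval -0.25 to 1.80, adjusted p = 0.745), and 7 of 14 and 7 of 13 such fits ended its calls.

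The 18 shared genes also showed how the 3 20E replicates compared. In 10 of the 18 (55.6%) the 20E libraries had the same order by replicate number in brain and in fat body, which held for 21.2% of all genes tested in both tissues. For the solvent libraries the order was the same in 3 of the 18 (16.7%), beside 22.4% of all genes. 20E replicate 1 had the smallest shift from the solvent mean in 14 of the 18 genes in brain and in 11 in fat body. Its median shift in the called direction was 1.13 log2 units in brain and 1.75 in fat body, against 1.26 and 2.71 for replicate 2 and 1.27 and 2.37 for replicate 3. These genes were picked by their calls, so the shifts are a description.

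**Figure D4:**
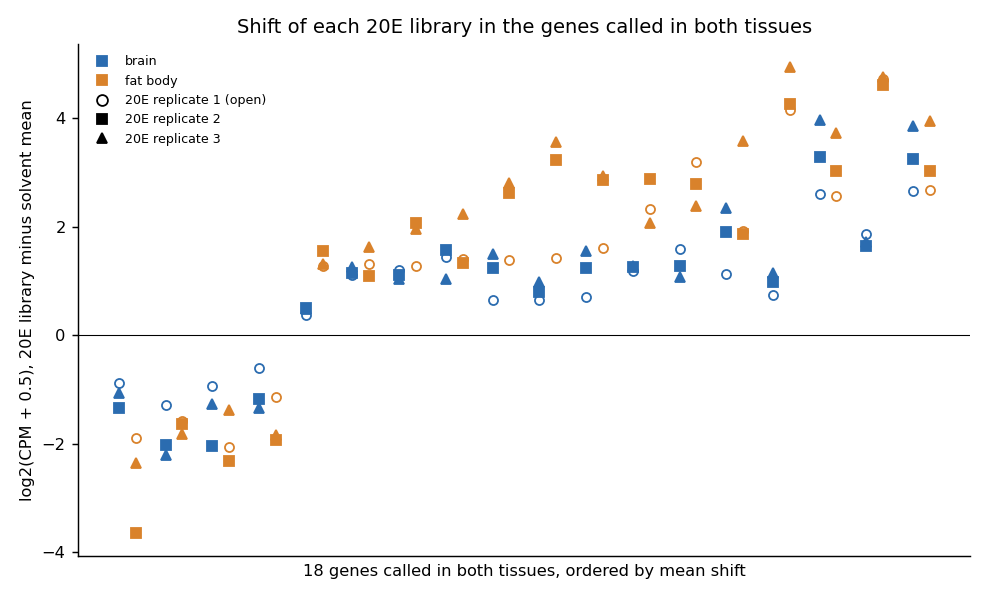
Shift of each 20E library from the mean of the solvent libraries of its tissue, as a difference of log2(CPM + 0.5) on the vertical axis, for the 18 genes called in both tissues, in brain (blue) and fat body (orange). The open circles of 20E replicate 1 are the nearest to 0 in 14 of 18 genes in brain and 11 of 18 in fat body.

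Of the 213 genes called in brain and not in fat body, 10 had a called difference. All 10 rose in brain, with log2 fold changes between 0.81 and 5.69. In solvent brain 4 of the 10 stood under 1 CPM, and in solvent fat body 2 did. A gene that low in solvent brain can pass the filter on low counts through its 20E libraries alone, so its rise is a description. The largest change was that of HSALG001115.1, with means of 0.0973 CPM in solvent brain and 5.17 CPM in 20E brain. Like HSALG026937.1, HSALG001115.1 and HSALG008963.2 passed that filter in the brain fit only through their 20E libraries. HSALG001115.1 did so in the fit of the difference too. Its mean was 0 CPM in 20E fat body, so its difference had no usable interval. Of the 10, 8 were tested in fat body. All 8 had a value below 0 there, with a median of -0.71, and 6 of the 8 had an unadjusted p under 0.05. Over all genes tested for the difference, 5019 of 9845 were below 0 in fat body and 1400 had such a p. The other 2 had too few fat body reads to be tested there. The test of the difference favours genes that move the opposite way in fat body, so these values are a description. No gene that fell in brain was in this group. The count was 4 or 5 without any one of the brain libraries of the comparison other than 20E-Brain replicate 1, and 17 without 20E-Fb replicate 1. It was 6 without EtOH-Brain replicate 3 and JHA-Brain replicate 1.

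HSALG008119.1 came next to HSALG026937.1 by the p of the difference. It stood at 25.1, 23.8 and 31.2 CPM in solvent brain and at 59.3, 76.5 and 73.7 CPM in 20E brain. In fat body it went the other way, from 42.9, 31.7 and 53.6 CPM to 29.7, 28.8 and 31.4 CPM, with each 20E library under each solvent library by a small margin. It rose in brain by 1.40 (SE 0.15, adjusted p = 0.00199), the fat body value was -0.48 (adjusted p = 0.313), and the difference was 1.90 (SE 0.27, adjusted p = 0.00562). JHA libraries lay at 28.9 to 36.2 CPM in brain and 30.1 to 41.9 CPM in fat body.

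Of the 82 genes called in fat body and not in brain, 24 had a called difference, of which 19 rose and 5 fell in fat body. The 19 had a median log2 fold change of 2.77 in fat body and 0.01 in brain, where 10 were above and 9 below 0. The 5 had medians of -2.19 and -0.22. All 24 were tested in brain, none stood under 1 CPM in solvent brain, and 5 of the 19 that rose stood over 8-fold higher in solvent brain than in solvent fat body in scaled CPM. The count was 5, 15 and 9 without EtOH-Fb replicate 1, 2 or 3, 39, 9 and 10 without 20E-Fb replicate 1, 2 or 3, 12 and 11 without EtOH-Brain replicate 1 or 2, and 13 and 12 without 20E-Brain replicate 1 or 2. In bulk samples, a change in the number of cells of a type and a change of RNA per cell cannot be told apart.

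HSALG009116.1 was the other named gene that fell in fat body. It stood there at 350, 249 and 272 CPM with solvent and at 50.9, 48.0 and 57.8 CPM with 20E. In brain it was at 11.3, 7.95 and 9.99 CPM with solvent and 7.52, 9.56 and 7.77 CPM with 20E, with overlapping groups. The log2 fold change was -2.45 in fat body (SE 0.27, adjusted p = 0.00746) and -0.22 in brain (adjusted p = 0.783), a difference of 2.24 (SE 0.32, adjusted p = 0.00562). Both the fat body call and the difference held in all alternative fits tried. The fat body JHA libraries were at 74.6, 121 and 59.4 CPM, also below those solvent libraries, which both hormones share as controls.

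HSALG001307.1 was abundant in both tissues. In fat body it stood at 1300, 1920 and 1236 CPM with solvent and at 7509, 9219 and 5803 CPM with 20E. In brain it stood at 1692, 1963 and 2467 CPM with solvent and at 1632, 1028 and 1106 CPM with 20E. The fat body groups were well apart, and the brain 20E libraries all lay below the solvent libraries, replicate 1 by a small margin and the others well below. The log2 fold change was 2.36 in fat body (SE 0.37, adjusted p = 0.0236) and -0.69 in brain (adjusted p = 0.179), and the difference was -3.04 (SE 0.44, adjusted p = 0.00562). The fat body call was lost in 5 of 13 alternative fits. Among them were the block by replicate number, not by ant, and each fit without an EtOH-Fb library. The difference held in all 22. With JHA it stood at 6459, 2885 and 4521 CPM in fat body.

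Opposite directions were seen at a weaker standard. Of the 40 genes with a called difference, 13 had an unadjusted p under 0.05 in each tissue with opposite signs, 8 higher in brain and lower in fat body and 5 the reverse. The test of the difference favours such genes, so the number is a description, beside 39 genes of this kind (0.406%) among the 9605. In the 8, the medians were 1.17 in brain and -0.75 in fat body, and in the 5 they were -0.60 and 2.36. None of the 13 was called in both tissues.

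HSALG013102.2 and HSALG007109.2 stand for these directions beside the pair already given. HSALG013102.2 was at 76.0, 91.7 and 94.1 CPM in solvent brain and 150, 147 and 179 CPM in 20E brain, and at 397, 399 and 502 CPM in solvent fat body and 319, 201 and 233 CPM in 20E fat body. The groups did not overlap in either tissue. It rose in brain by 0.88 (adjusted p = 0.0152), its fat body value was -0.76 (adjusted p = 0.115), and the difference was 1.65 (SE 0.25, adjusted p = 0.00764). The brain call ended without EtOH-Brain replicate 1, 20E-Brain replicate 2 or 20E-Brain replicate 3.

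HSALG007109.2 was at 105, 114 and 110 CPM in solvent brain and 98.9, 42.5 and 42.7 CPM in 20E brain, and at 62.8, 49.4 and 42.1 CPM in solvent fat body and 162, 380 and 557 CPM in 20E fat body. 20E replicate 1 was the nearest to solvent in both tissues. It rose in fat body by 2.86 (adjusted p = 0.0236), its brain value was -0.82 (adjusted p = 0.26), and the difference was -3.66 (SE 0.54, adjusted p = 0.00764). With the replicate block the adjusted p of the difference was 0.1, so that call was lost. The fat body call was lost in 7 of 13 alternative fits. These include the tissue fit's block by replicate number, not by ant, and each fit without an EtOH-Fb library.

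For most genes called in one tissue, a difference between the tissues was not shown. For 203 genes called in brain (143 higher, 60 lower) and 58 called in fat body (26 higher, 32 lower) the difference was not called. Of the 203, 158 were tested in fat body and 122 of these had the same sign there, and of the 55 of the 58 tested in brain, 48 had the same sign, beside 60.8% of all genes tested in both. The sorting had removed genes with a called difference, many of them of opposite sign, so these shares are a description. The 143 that rose in brain had a median log2 fold change of 1.46 there, and the 109 of them tested in fat body had 0.55. The 60 that fell in brain had a median of -1.02, and the 49 tested in fat body -0.50. Among the 26 higher in fat body the median was 1.87, and the 23 tested in brain 0.55, while the 32 that fell had -1.42 in fat body and -0.30 in brain. For 181 of the 203 and 54 of the 58 the 95% interval of the difference reached a 2-fold step.

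HSALG009404.2, HSALG017338.1, HSALG002337.2 and HSALG015802.1 were each picked for the smallest difference in their class and direction. A small difference therefore follows from the choice. HSALG009404.2 was called in brain alone although its change was alike in size in the other tissue. It stood at 39.1, 43.2 and 36.3 CPM in solvent brain and 56.9, 72.7 and 74.4 CPM in 20E brain, and at 65.8, 56.9 and 62.7 CPM and 102, 89.9 and 125 CPM in fat body. The groups were apart in both tissues. The log2 fold changes were 0.80 in brain (adjusted p = 0.0237) and 0.80 in fat body (adjusted p = 0.0741), and the 95% interval of the difference ran from -0.46 to 0.48. The brain call was lost in 7 of 14 alternative fits.

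HSALG017338.1 and HSALG002337.2 gave the reverse case. HSALG017338.1 was at 15.7 to 18.8 CPM in solvent fat body and 29.3 to 43.7 CPM with 20E, and at 19.2 to 28.2 CPM and 30.8 to 42.4 CPM in brain. HSALG002337.2 was at 37.4 to 38.1 CPM in solvent fat body and 17.8 to 21.9 CPM with 20E, and at 21.0 to 38.7 CPM and 11.9 to 22.2 CPM in brain, where the groups overlapped. The adjusted p was 0.0479 and 0.0307 in fat body and 0.0581 and 0.194 in brain, and 9 and 8 of 13 alternative fits ended the fat body calls. The differences were -0.25 (95% interval -0.83 to 0.33) and 0.05 (95% interval -0.66 to 0.77).

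HSALG015802.1 showed a limit set by expression. It was at 125, 139 and 143 CPM in solvent brain and 67.6, 47.3 and 73.8 CPM in 20E brain, a fall by 1.09 on the log2 scale (adjusted p = 0.04998). That call was lost in 8 of 14 alternative fits, including each one without a brain library of the comparison. The 3 solvent fat body libraries together held 11 reads and the 3 20E libraries 6, so the gene was not tested there, and the 95% interval of the difference ran from -1.87 to 1.87. Of the 213 genes called in brain and not in fat body, 47 were not tested in fat body.

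The ovary libraries, which the sorting did not use, gave an outside readout, although the ovaries may be from the same ants. No ovary gene was called for 20E (0% of 11418), so signs and medians are given, beside all genes tested for the difference. Of these, 10950 were measured in ovary, 5633 above and 5317 below 0, with a median log2 fold change of 0.01. 20E ovary replicate 3 and JHA ovary replicate 1 had the highest shares of fat body gene counts, 3.3 and 3.27%. The range was 2.03 to 2.57% in the other ovary libraries. The ovary fit left out no library. The 4 genes that fell in brain and fat body were all below 0 in ovary, with a median of -1.03 and 3 of them at an unadjusted p under 0.05, as were 259 of the 10950. HSALG006313.2 was at 2.21, 2.44 and 4.19 CPM in solvent ovary and 0.236, 0.194 and 0.922 CPM with 20E (adjusted p = 0.918). Of the 14 that rose in both tissues, 9 were above 0 in ovary, with a median of 0.15, and 2 had an unadjusted p under 0.05. These were HSALG000871.2 (log2 fold change of 5.95), which stood under 1 CPM in solvent brain, and HSALG001741.2 (1.37). The 19 genes that rose in fat body with a called difference had an ovary median of 0.07, and the 7 measured of the 10 that rose in brain had 0.01.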

How the data were processed

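RNA was sequenced from 27 libraries, and the deposited table gives raw read counts for each gene identifier. Per the submitters' processing notes they were made with Trimmomatic, STAR 2.5.3a and HTSeq. No source used here gives the genome build, annotation or strand setting, so overlapping genes and near-identical copies may share or lose reads. The 5 HTSeq summary lines were dropped from library sizes and tests and made up 42.7 to 63.3% of the table's total per library. No replicate pair in brain or fat body agreed within sampling noise (chi-square per degree of freedom of 7.94 or more). The labels give no separate cultures or colonies, so p-values measure the spread between these libraries.

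The tests used edgeR 4.0.16 under R 4.3.3 (TMM, filterByExpr, robust glmQLFit, glmQLFTest, Benjamini-Hochberg adjustment over all genes tested). The difference came from 1 fit of the 18 brain and fat body libraries over 12833 genes with 1 spread per gene, and the tissue calls from a fit of 9 libraries per tissue. Each standard error is the unshrunken log2 change over the root of F. Named genes are at most 2 per direction and class with a mean of at least 2 CPM in a group, ranked by adjusted p of the difference, by the smaller of both changes for shared genes, or by the smallest difference (1 per direction) where no difference was called. Members, lists and rules were chosen with earlier results of these data known. Planned gene lists and cell type markers were not tested, since no identifier has a name.

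Replicate numbers were taken to mark ants, because deviations from the group means correlated between brain and fat body libraries of the same number at 0.139 to 0.236 in all 6 pairs compared (0.0887 to 0.153 in JHA). EtOH replicate 2 and JHA replicate 2 did not correlate best with their own number, and the labels do not state the pairing. Alternatives were DESeq2 1.42.0, its size factors, no filter, limma 3.58.1 voom with library weights or a random ant term, the replicate block, other sets of libraries and leaving out each library; a spread per tissue was added after seeing the data. The fit was also run on simulated counts with 200 genes changed in brain alone. Those libraries were drawn independently, without the correlation between tissues, and the outcome is not given here.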

Additional observations from a re-analysis of the deposited data

Results flagged for a closer look

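For 9 named genes the 20E effect differed between brain and fat body by edgeR's test of the difference itself (log2 change in brain minus log2 change in fat body). The difference was above 0 in HSALG026937.1 (5.06), HSALG002574.2 (2.40), HSALG009116.1 (2.24), HSALG008119.1 (1.90) and HSALG013102.2 (1.65). It was below 0 in HSALG007109.2 (-3.66), HSALG001741.2 (-3.09), HSALG001307.1 (-3.04) and HSALG006240.2 (-2.48). These genes were named for their small adjusted p. HSALG026937.1 passed the filter on low counts in the brain fit only through its 20E libraries, so its brain values are a description. The called difference of HSALG007109.2 was lost with the replicate block (adjusted p = 0.1 by the same test).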

How the results depend on the processing

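Counts of calls and their balance of directions moved with the processing, while no named gene changed sign in a called value. The 7 counts are, in order, the called differences (40), the calls in brain (231) and in fat body (100), genes called in both with the same sign (18) and with opposite signs (0), and genes called in brain alone (10) or fat body alone (24) with a called difference. DESeq2's Wald test gave 216, 559, 524, 75, 4, 44 and 133, and its 216 include the 40. Voom with library weights gave 108 differences, 1566 brain calls, 66 fat body calls, 4 opposite and 41 brain alone. The replicate block gave 17, 77, 52, 4 same sign, 5 and 6. With only the 12 libraries there were 119 brain calls, 33 fat body calls, 6 same sign and 8 fat body alone. Without EtOH-Brain replicate 3 and JHA-Brain replicate 1 there were 400 brain calls, 1 opposite and 6 brain alone. Tissue contrasts from the joint fit gave 108 brain calls, 565 fat body calls and 1 opposite. Leaving out 1 library at a time gave 18 to 78, 51 to 423, 13 to 105, 4 to 23, 0 to 3, 4 to 17 and 5 to 39. The share of called differences above 0 was 42.5%, but 60.2% by DESeq2, 62% by voom with weights, 58.8% with the block and 34.4 to 63.9% without single libraries; of brain calls 72.3% were higher (47 to 96.1% over the alternatives) and of fat body calls 59% (42.9 to 75%). DESeq2's size factors, no filter, all 27 libraries, a random ant term and a spread per tissue kept the counts they gave within 1.5 times. Of the alternative values for 39 single-gene results, 588 kept their side of the threshold, 81 lost the call and 0 reversed. The causes were not tested. In the tissue fits replicate numbers share only a number across treatments, so a call lost under the block there does not by itself show a smaller effect. Depth limits genes with few reads in one tissue, and 47 genes called in brain were not tested in fat body.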
